A study of Homo sapiens with 9 samples.

Results

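The genes described here are 10 transcripts of the NF-kB pathway in HCT116, a long-established line of human colorectal cancer cells: the secreted chemokines CXCL8, CXCL1, CXCL2 and CXCL3, the inhibitors and feedback regulators NFKBIA, TNFAIP3 and BIRC3, and the NF-kB subunit genes NFKB1, NFKB2 and RELB. They are 10 of the 15354 rows of the expression table, found by gene identifier. The group was chosen by name together with a measured value, the high level of CXCL8 in the libraries labelled siRNA A. The difference between siRNA A and control is therefore given for these genes as a description with no test, and so is the difference between siRNA A and siRNA B.

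Cells transfected in 3 ways, each at 25 nM and each in 3 biological replicates, were profiled by single-end RNA-seq with reads of 50 bases. A commercial siRNA without a target served as control, and the other groups received siRNA A or siRNA B, both directed against SNHG5, a long non-coding RNA. All groups thus share the parental cell line and the transfection, and no untransfected cells were analysed here. The series asked which transcripts change when SNHG5 is depleted.

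NF-kB transcription factors are dimers of subunits made by NFKB1, NFKB2, RELB, RELA and REL. In resting cells they are held in the cytoplasm by inhibitors of the IkB family such as the product of NFKBIA, and signals from tumour necrosis factor, interleukin-1 or microbial products activate the IKK kinases, which mark the inhibitor for destruction. The freed dimers switch on chemokine genes, whose secreted products attract neutrophils, and also the genes of their own brakes, among them NFKBIA and TNFAIP3. Colorectal cancer cells are a known source of CXCL8 and related chemokines.

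The targeted gene was examined first. SNHG5 stood at 22.1 to 31.3 TMM-scaled CPM in control (CPM, reads of a gene over the library total and brought to 1 common total, then scaled by the trimmed mean of M values). The range was 58.8 to 71.5 in siRNA A and 46.1 to 50.3 in siRNA B. It was thus higher in all 6 libraries labelled as knock-downs (log2 fold change 1.29 and 0.83, limma, adjusted p = 1.86e-05 and 5.90e-04), which goes against the labels. The row counts reads per gene and does not separate the spliced forms of SNHG5. It also overlaps PKMP3 and an unnamed gene on the same strand, and the part of these in the difference was not tested. The names siRNA A and siRNA B therefore mean no more than the label of a library in what follows. The libraries held 15566530 to 23277549 reads, so that 1 CPM stood for 15.6 to 23.3 reads. The shallowest library, siRNA A replicate 2, stood apart for the genes described here, and values are given with and without it. Epithelial markers (EPCAM, KRT8, KRT18, CDH1, VIL1 and CDX2) were all above 1 CPM in every library, with sums of 1581 to 1652 CPM in control, 2077 to 2437 in siRNA A and 1768 to 1908 in siRNA B. Of 5 leukocyte markers 2 had a row, CD68 and LYZ, and their sum was 0.673 to 1.23 CPM over all 9 libraries. None of 4 endothelial markers had a row here. Of 6 fibroblast markers 4 had a row, of which COL1A1 alone was above 1 CPM in every library, and the sums were 18.5 to 19.7 CPM in control, 9.44 to 12.4 in siRNA A and 8.59 to 9.45 in siRNA B. The part of the epithelial and COL1A1 differences in the results was not tested.

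The 4 chemokine genes lie in 1 stretch of chromosome 4 (GRCh37): CXCL8 at chr4:74606236-74609433 and CXCL1 at chr4:74735110-74737025 on the plus strand, CXCL3 at chr4:74902306-74904524 and CXCL2 at chr4:74962757-74964913 on the minus strand. NFKB1 is on the same chromosome at chr4:103422487-103538459. The others are NFKBIA at chr14:35870285-35873955, TNFAIP3 at chr6:138188351-138204451, BIRC3 at chr11:102188215-102210134, NFKB2 at chr10:104153867-104162281 and RELB at chr19:45504719-45541450. TNFAIP3 overlaps WAKMAR2, NFKB1 overlaps AF213884.3 and BIRC3 overlaps an unnamed gene, each on the other strand, and reads of such partners cannot be told apart where the use of strand is not stated. The other 7 overlap no annotated gene.

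What these genes share in sequence was read from their promoters, since NF-kB dimers bind a short, nearly palindromic site. RefSeq promoter windows of 300 bases (250 before and 50 after each start, from GRCh38.p14) were at hand for 9 of the 10 genes, all but RELB, and each matched GRCh37 at the place given. The stretches below surround 1 match each, in capitals, on the strand of the gene. They are shown because most of these genes match 1 consensus, with letters that differ between genes. CXCL8, the gene that differed most, has a shorter match than the rest.

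CXCL8 (chr4:74606170-74606228): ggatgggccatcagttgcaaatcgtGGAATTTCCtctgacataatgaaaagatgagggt
CXCL1 (chr4:74735006-74735065): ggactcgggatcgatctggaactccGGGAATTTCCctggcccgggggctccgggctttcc
CXCL2 (chr4:74964956-74965015): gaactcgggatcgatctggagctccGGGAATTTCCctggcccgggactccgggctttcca
CXCL3 (chr4:74904451-74904510): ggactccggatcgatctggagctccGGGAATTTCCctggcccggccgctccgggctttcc
NFKBIA (chr14:35874002-35874061): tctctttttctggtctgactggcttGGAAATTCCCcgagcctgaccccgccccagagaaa
TNFAIP3 (chr6:138188316-138188375): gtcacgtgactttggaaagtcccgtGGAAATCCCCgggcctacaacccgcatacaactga
BIRC3 (chr11:102187991-102188050): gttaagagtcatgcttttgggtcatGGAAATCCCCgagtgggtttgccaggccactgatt
NFKB1 (chr4:103422442-103422501): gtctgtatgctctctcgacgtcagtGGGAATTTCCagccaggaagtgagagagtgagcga
NFKB2 (chr10:104154203-104154262): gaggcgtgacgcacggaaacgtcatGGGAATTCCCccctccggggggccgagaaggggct

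The NF-kB consensus of 10 letters, searched on both strands, was present in 8 of the 9 genes with a window and in 8.97% of 10226 tested genes with one. CXCL8 was the gene without it. Its window held GGAATTTCC, 91 bases before the start. This 9-letter string is shared by the chemokine promoters and was chosen after they had been read. In the other genes that hold it, it overlaps the consensus match. That string was present on 1 or the other strand in 6 of the 9 (CXCL8, CXCL1, CXCL2, CXCL3, NFKB1 and NFKBIA) and in 0.567% of the tested genes. Its presence in CXCL8, CXCL1, CXCL2 and CXCL3 was thus fixed in advance, and nothing is read from the count of 6. The stretches of CXCL1, CXCL2 and CXCL3 resemble each other well beyond the site, and their sites start 79, 78 and 79 bases before the start of the gene. A match is a description of the letters and not a measured site of binding.

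CXCL8, or interleukin-8, is a neutrophil attractant. It stood at 3.27, 0.782 and 1.70 TMM-scaled CPM in the control libraries, at 23.4, 56.7 and 19.1 in the siRNA A libraries and at 5.86, 3.23 and 3.51 in the siRNA B libraries. The 3 siRNA A libraries were all far above the other 6, and siRNA A replicate 2 was the highest of all 9. The mean was 1.92 ± 1.26 in control, 33.1 ± 20.5 in siRNA A and 4.20 ± 1.45 in siRNA B (SD, n = 3 each), so that the siRNA A mean was 17.2 times and the siRNA B mean 2.19 times that of control. Without siRNA A replicate 2 the siRNA A ratio was 11.1. In a bulk library, more cells that express a gene and more RNA in each cell cannot be told apart.

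CXCL1, CXCL2 and CXCL3 encode closely related chemokines that act on the same neutrophil receptor. CXCL1 had 0.997, 0.608 and 1.0 TMM-scaled CPM in control, 3.35, 6.27 and 1.93 in siRNA A and 1.57, 1.36 and 0.921 in siRNA B. CXCL2 had 0.598, 0.217 and 0.393 in control, 2.23, 4.91 and 2.46 in siRNA A and 1.39, 1.10 and 0.921 in siRNA B. For both genes each siRNA A library was above every library of the other groups, and for CXCL2 the siRNA B libraries also lay between the groups without overlap. CXCL3 had 0.558, 0.869 and 0.175 in control, 1.44, 5.06 and 1.23 in siRNA A and 0.716, 1.16 and 0.614 in siRNA B. Its siRNA A replicate 2 was 3.80 times the mean of the other 2 siRNA A libraries, and control and siRNA B overlapped. The ratios of the siRNA A to the control mean were 4.43, 7.95 and 4.83 for CXCL1, CXCL2 and CXCL3, and 3.03, 5.83 and 2.50 without siRNA A replicate 2.

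These 3 chemokine values rest on few reads. CXCL2 had 15, 5 and 9 reads in the control libraries against 42, 65 and 46 in siRNA A, and CXCL3 had 14, 20 and 4 against 27, 67 and 23. CXCL2 and CXCL3 passed the filter on low values (at least 1 CPM in at least 3 of 9 libraries) in 5 libraries each, 3 of them siRNA A, so both owe their place among the tested genes to the group in which they were high. Parts of the 3 mRNAs are alike enough to share reads: of all stretches of 50 bases, 5.33% in CXCL1, 10.1% in CXCL2 and 5.26% in CXCL3 occur in another of the 4 chemokine mRNAs, and none in CXCL8. Nearly identical stretches and other loci were not searched, and how shared reads were counted is not stated. The extent to which reads of CXCL1, CXCL2 and CXCL3 are uncertain was thus not measured.

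The make-up of the chemokine reads differed as well. The 4 genes together had 136, 57 and 75 reads in control, 573, 965 and 462 in siRNA A and 213, 106 and 136 in siRNA B. CXCL8 held 77.0% of them in siRNA A replicate 1 (Wilson 95% interval 73.3 to 80.2), 77.7% in replicate 2 (75.0 to 80.2) and 77.3% in replicate 3 (73.2 to 80.9). In control it held 60.3% (51.9 to 68.1), 31.6% (21.0 to 44.5) and 52.0% (40.9 to 62.9), and in siRNA B 61.5% (54.8 to 67.8), 47.2% (37.9 to 56.6) and 58.8% (50.4 to 66.7). The siRNA A shares thus lay within 1 narrow range while the totals differed, and they did not overlap those of the other groups. As the level of CXCL8 in siRNA A was used in the selection, this difference is descriptive and nothing is read from it. The intervals cover counting error only, since the reads carry no molecular identifiers.

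**Figure D1:**
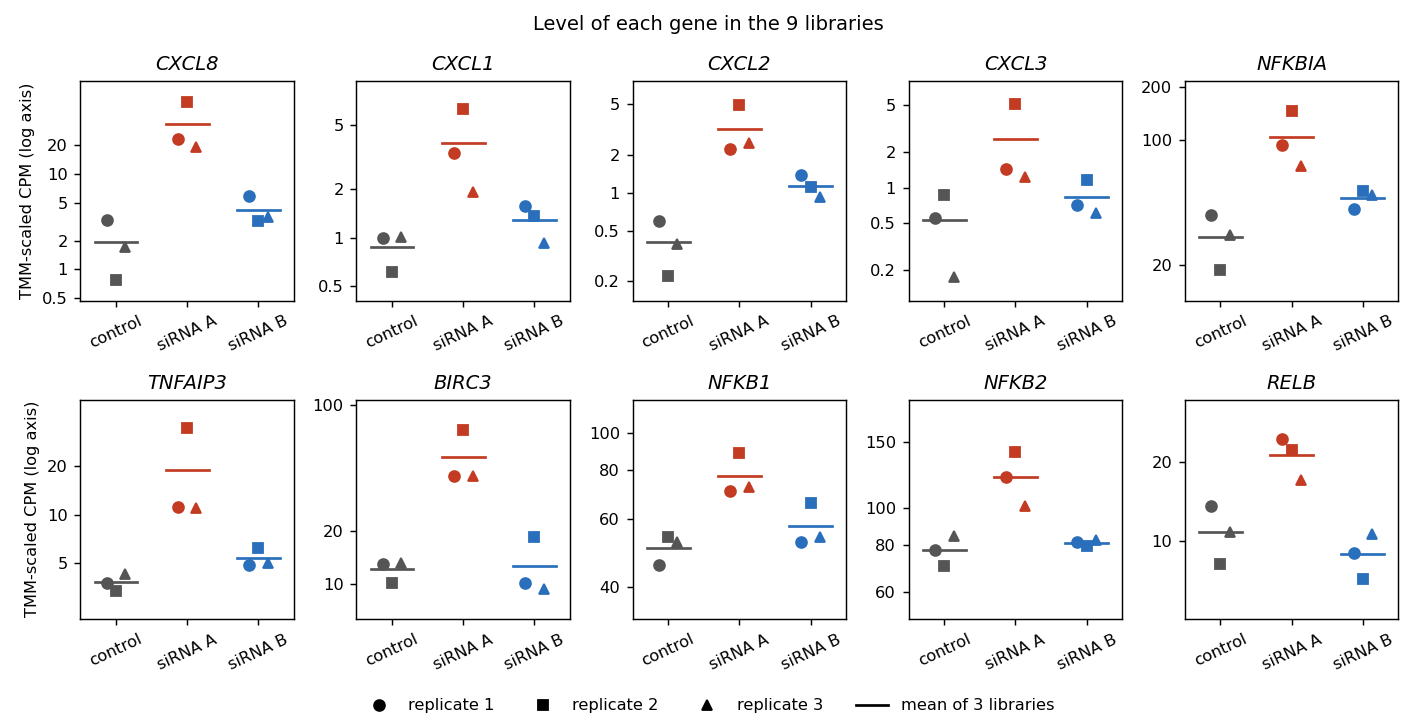
Each panel plots the TMM-scaled CPM of 1 gene on a log axis in the 3 control, 3 siRNA A and 3 siRNA B libraries (markers give the replicate number, lines the mean of 3 libraries). The siRNA A libraries lie above the control libraries in all 10 panels, and siRNA A replicate 2 is the highest of the 9 in all but RELB.

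NFKBIA encodes IkB-alpha, the inhibitor that NF-kB itself induces. It stood at 38.4, 18.8 and 29.5 TMM-scaled CPM in control, at 94.3, 146 and 72.3 in siRNA A and at 41.6, 52.3 and 49.8 in siRNA B. The 3 groups did not overlap on this scale, with siRNA B between the others. The means were 28.9 ± 9.81, 104 ± 37.6 and 47.9 ± 5.56 (SD, n = 3 each), or 3.60 times control for siRNA A, 2.88 times without siRNA A replicate 2, and 1.66 times for siRNA B.

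TNFAIP3 encodes A20, an enzyme that edits ubiquitin chains and shuts the pathway off. It stood at 3.75, 3.34 and 4.24 TMM-scaled CPM in control, at 11.2, 34.9 and 11.04 in siRNA A and at 4.83, 6.20 and 5.0 in siRNA B. The siRNA A mean of 19.0 ± 13.8 (SD, n = 3) rested largely on replicate 2, which was 3.15 times the mean of the other 2 libraries: the ratio to control was 5.04 with it and 2.94 without it. The other 2 siRNA A libraries still lay above every control and siRNA B library.

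BIRC3 encodes cIAP2, a ubiquitin ligase that protects cells from death signalled by tumour necrosis factor. It stood at 13.1, 10.2 and 13.2 TMM-scaled CPM in control, at 40.5, 72.9 and 40.2 in siRNA A and at 10.2, 18.5 and 9.47 in siRNA B. The siRNA A libraries were all above the rest (ratio of means 4.21, or 3.31 without replicate 2), while siRNA B spread over both sides of the control range, with a ratio of 1.04.

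The subunit genes differed less. NFKB1, which encodes the precursor p105 of p50, stood at 45.5, 53.9 and 52.2 TMM-scaled CPM in control, at 70.8, 88.5 and 72.4 in siRNA A and at 52.2, 66.0 and 53.9 in siRNA B. NFKB2, which encodes the precursor p100 of p52, stood at 77.4, 70.1 and 84.6 in control, at 122, 141 and 101 in siRNA A and at 81.3, 79.5 and 82.2 in siRNA B. Their ratios to control were 1.53 and 1.57 for siRNA A and 1.14 and 1.05 for siRNA B. Before TMM scaling the siRNA A and control libraries overlapped for both genes: NFKB2 had 92.8 CPM in siRNA A replicate 3 and 93.3 CPM in control replicate 3, and NFKB1 had 63.3 CPM in siRNA A replicate 1 and 64.3 CPM in control replicate 2.

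RELB, the subunit of the alternative pathway that pairs with p52, stood at 13.6, 8.17 and 10.8 TMM-scaled CPM in control, at 24.5, 22.4 and 17.1 in siRNA A and at 9.04, 7.17 and 10.7 in siRNA B. It was the 1 gene of the 10 in which siRNA A replicate 2 was not the highest library and the 1 gene whose siRNA B mean was below the control mean. Its siRNA A mean was 1.96 times that of control, 1.91 times without replicate 2, and its siRNA B mean 0.823 times.

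On the scale of the fit, log2(TMM-scaled CPM + 1), the siRNA A differences from control were 3.48 for CXCL8 (SE 0.38), 1.28 for CXCL1 (SE 0.27), 1.54 for CXCL2 (SE 0.22) and 1.09 for CXCL3 (SE 0.33). The regulators differed by 1.81 in NFKBIA (SE 0.26), 1.87 in TNFAIP3 (SE 0.33) and 1.94 in BIRC3 (SE 0.26), and the subunits by 0.60 in NFKB1 (SE 0.13), 0.63 in NFKB2 (SE 0.12) and 0.92 in RELB (SE 0.19). The pseudocount of 1 understates the difference of low genes: with a pseudocount of 0.1 CXCL2 differed by 2.70 and CXCL3 by 1.97. With the library totals alone in place of TMM factors the subunit differences were 0.24, 0.27 and 0.58, a setting that also moved the median of all tested genes from −0.02 to −0.34. The median of the 10 was 1.41 and that of all 13893 tested genes −0.02. Ordered by this difference among all tested genes, BIRC3 was number 26, TNFAIP3 31, NFKBIA 36, CXCL2 74, CXCL1 174, CXCL3 324, RELB 586, NFKB2 1590 and NFKB1 1790. The siRNA A libraries were all above the control libraries in 10 of 10 genes on the TMM scale and in 8 of 10 in CPM, where 27.6% of all tested genes were so on the TMM scale. As the selection used this contrast, nothing is read from these counts.

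**Figure D2:**
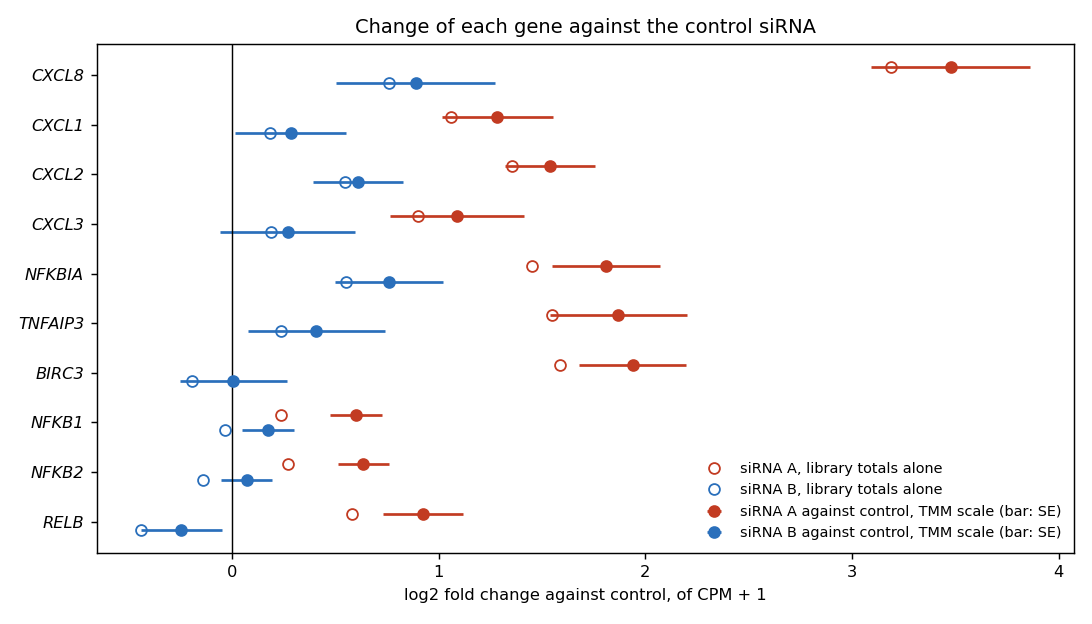
The plot gives the log2 difference from control of each gene for the libraries labelled siRNA A and siRNA B, with filled points and bars for the TMM scale and its SE and open points for library totals alone. The siRNA A points run from 0.60 in NFKB1 to 3.48 in CXCL8 on the TMM scale, and the siRNA B points from −0.24 in RELB to 0.89 in CXCL8.

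The siRNA B libraries were not used in the selection, and the question of whether these genes also differ there was tested with limma across all tested genes, although the control libraries are shared with the contrast that was used. NFKBIA rose by 0.76 (SE 0.26, limma, adjusted p = 0.0411). CXCL2 differed by 0.61 (SE 0.22, limma, adjusted p = 0.0491), but it was among the tested genes only because of the siRNA A libraries. In a fit with no filter on low values CXCL2 still had 0.61 (limma, adjusted p = 0.0483), while NFKBIA had 0.76 and lost its call (limma, adjusted p = 0.0551). None fell in limma, at an unadjusted p under 0.05 either, nor in edgeR or DESeq2 on recovered reads. The other 8 did not pass the test: CXCL8 differed by 0.89 (SE 0.38, limma, adjusted p = 0.0941), TNFAIP3 by 0.41 (SE 0.33, limma, adjusted p = 0.373), CXCL1 by 0.28, CXCL3 by 0.27, NFKB1 by 0.18, NFKB2 by 0.07, BIRC3 by 0.0052 and RELB by −0.24 (limma, adjusted p from 0.307 to 0.990). Calls higher were thus made in 2 of 10, where 15.6% of all tested genes were called higher, and calls lower in 0 of 10, where 18.3% were called lower. Without CXCL2 and CXCL3, which siRNA A brought through the filter, the count higher was 1 of 8, and nothing is read from either count.

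Both siRNA B calls stood near the threshold. NFKBIA lost it with library totals alone (0.55, limma, adjusted p = 0.0775), without control replicate 2 (0.47, limma, adjusted p = 0.188) and without control replicate 3, siRNA A replicate 1 or any siRNA B library (limma, adjusted p from 0.0509 to 0.0947). The edgeR test on recovered reads did not call NFKBIA either (edgeR, adjusted p = 0.0532). CXCL2 lost it with library totals alone (0.55, limma, adjusted p = 0.0549) and with median-of-ratios size factors (0.61, limma, adjusted p = 0.0508). It was also lost without any 1 control or siRNA B library or siRNA A replicate 3 (limma, adjusted p from 0.0511 to 0.17). Without siRNA A replicate 2, which bears on this comparison through the shared estimate of spread, the scaling and the filter, 4 of 10 were called: CXCL8 then had 0.89 (limma, adjusted p = 0.0341) and TNFAIP3 0.41 (limma, adjusted p = 0.0357). Over all tested genes 2293 were then called higher, against 2172 with all libraries, and nothing is read from the count of 4. CXCL8 also passed without control replicate 1 (1.20, limma, adjusted p = 0.0345). The siRNA B libraries were all above the control libraries in 3 of 10 genes (CXCL2, NFKBIA and TNFAIP3) on the TMM scale and in 2 of 10 (CXCL2 and TNFAIP3) in CPM, where 22.5% of all tested genes were so on the TMM scale.

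Set beside each other, the libraries labelled siRNA A exceeded those labelled siRNA B in every one of the 10 genes. On the log2 scale the difference was 2.59 for CXCL8, 1.0 for CXCL1, 0.93 for CXCL2, 0.82 for CXCL3, 1.05 for NFKBIA, 1.46 for TNFAIP3, 1.93 for BIRC3, 0.42 for NFKB1, 0.56 for NFKB2 and 1.17 for RELB, with the standard errors given above. The 3 siRNA A libraries were all above the 3 siRNA B libraries in 10 of 10 genes, where 22.6% of all tested genes were so. Without siRNA A replicate 2 the differences were 2.13 for CXCL8 and 0.36 for CXCL3, with the other 8 between 0.32 and 1.66. These differences rest on the siRNA A libraries used in the selection and are descriptive.

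Within siRNA A, replicate 2 was the highest of the 3 libraries in 9 of 10 genes, where that was so in 38.1% of all tested genes. As the level of CXCL8 in siRNA A was used in the selection, this is descriptive and nothing is read from the count of 9. Its level over the mean of the other 2 libraries was 3.80 in CXCL3, 3.15 in TNFAIP3, 2.66 in CXCL8, 2.38 in CXCL1, 2.09 in CXCL2, 1.81 in BIRC3, 1.75 in NFKBIA, 1.27 in NFKB2, 1.24 in NFKB1 and 1.07 in RELB. It was also the library with the fewest reads, and the part of depth in this was not tested. Leaving it out lowered the 10 log2 differences from control to between 0.50 and 3.03, all still above 0.

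Levels of different genes can be compared only per length, here as TMM-scaled CPM per kb of the canonical mRNA. In control the order was NFKB2 at 25.7 ± 2.40, NFKBIA at 18.5 ± 6.29, NFKB1 at 12.5 ± 1.09, RELB at 4.82 ± 1.21, BIRC3 at 1.77 ± 0.243, CXCL8 at 1.17 ± 0.766, TNFAIP3 at 0.810 ± 0.0959, CXCL1 at 0.741 ± 0.193, CXCL3 at 0.497 ± 0.323 and CXCL2 at 0.361 ± 0.171 (SD, n = 3 each). Neighbours in this order overlapped in their libraries except at the steps from NFKB1 to RELB and from RELB to BIRC3. In siRNA A NFKBIA came first at 66.8 ± 24.1, before NFKB2 at 40.3 ± 6.57, and CXCL8 moved from sixth place to the third at 20.2 ± 12.5, beside NFKB1 at 19.1 ± 2.42. The others there were RELB at 9.45 ± 1.68, BIRC3 at 7.45 ± 2.74, TNFAIP3 at 4.08 ± 2.95, CXCL1 at 3.28 ± 1.89, CXCL2 at 2.87 ± 1.33 and CXCL3 at 2.40 ± 2.01, and the only step without overlap was that from NFKB1 to RELB. In siRNA B NFKBIA at 30.7 ± 3.57 and NFKB2 at 26.9 ± 0.455 overlapped at the top, and CXCL8 at 2.56 ± 0.880 followed RELB at 3.96 ± 0.773. The remaining 6 in siRNA B were NFKB1 at 14.2 ± 1.85, BIRC3 at 1.85 ± 0.728, TNFAIP3 at 1.15 ± 0.160, CXCL1 at 1.09 ± 0.280, CXCL2 at 1.02 ± 0.211 and CXCL3 at 0.773 ± 0.271.

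**Figure D3:**
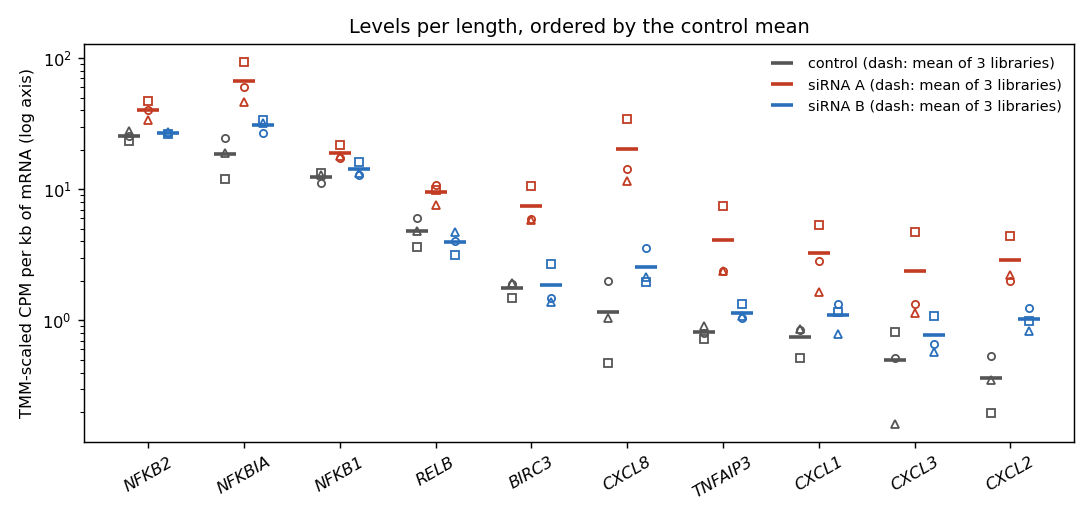
The plot gives the TMM-scaled CPM per kb of mRNA of the 10 genes on a log axis, in the order of the control mean, with a symbol per library and a dash for the mean of 3 libraries. NFKB2, NFKBIA and NFKB1 lead in control, and CXCL8 moves from 1.17 in control to 20.2 in the libraries labelled siRNA A.

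Many NF-kB induced mRNAs carry AU-rich elements, through which proteins such as tristetraprolin speed their decay. The 3′ UTR of the canonical mRNA held the pentamer ATTTA 9 times in CXCL8, 6 in CXCL1, 10 in CXCL2, 7 in CXCL3, 3 in NFKBIA, 5 in TNFAIP3, 12 in BIRC3, 3 in NFKB1, 1 in NFKB2 and 0 in RELB. Per kb of 3′ UTR that is 14.0 in CXCL2, 10.4 in CXCL3, 7.77 in CXCL1, 7.19 in CXCL8, 6.76 in NFKB2, 6.0 in NFKBIA, 5.22 in BIRC3, 4.24 in NFKB1, 2.51 in TNFAIP3 and 0 in RELB, against a median of 1.7 over 11797 mRNAs of tested genes. Counts as high were not rare: 11.3% of those mRNAs had as many as BIRC3, 15.0% as CXCL2, 17.5% as CXCL8, 46.9% as NFKBIA and NFKB1, and 72.9% as NFKB2. The overlapping form ATTTATTTA was present in 4 of 10 (CXCL8, CXCL1, CXCL2 and BIRC3) and in 7.71% of those mRNAs. Letters in a 3′ UTR do not show how fast an mRNA decayed in these cells.

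The other genes of the pathway were taken as lists that leave out the 10, and these were tested against control with limma for both siRNAs. The lists were chosen with earlier results of these data known, so the counts of calls in them are descriptive. Of 118 listed genes 96 had a row and 86 passed the filter. In siRNA A 33 rose and 25 fell, or 19 and 34 with library totals alone, where 23.9% of all tested genes rose and 27.6% fell. In siRNA B 21 rose and 16 fell, or 15 and 27 with library totals alone, and 9 fell without control replicate 2. Over all tested genes 15.6% rose and 18.3% fell there, so the share that fell, 16 of 86, was close to the background. The share that fell in siRNA A, 25 of 86, was also close to its background of 27.6%. Of the 86, 3 passed the filter only with the group in which they were highest (PTGS2 in siRNA A, TLR3 and IFIT3 in control), and without them 32 rose and 23 fell in siRNA A and 21 rose and 14 fell in siRNA B. The 2 comparisons share the control libraries, and TLR3 is in 2 of the lists.

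Other induced targets of NF-kB are the genes most like the 10 in kind. Of 15 tested, 7 rose and 1 fell in siRNA A (5 and 2 with library totals alone, and 6 and 1 without PTGS2), where 23.9% of all tested genes rose and 27.6% fell, and 3 rose and 3 fell in siRNA B (the same counts with totals alone), where 15.6% rose and 18.3% fell. The median log2 difference of the 15 was 0.35 in siRNA A and 0.19 in siRNA B. NUAK2, a kinase gene induced by tumour necrosis factor, stood at 5.86, 4.86 and 5.59 TMM-scaled CPM in control, at 33.5, 81.9 and 31.9 in siRNA A and at 13.5, 20.3 and 13.6 in siRNA B. It rose by 2.82 in siRNA A (limma, adjusted p = 2.25e-05) and by 1.36 in siRNA B (limma, adjusted p = 0.00424), and the 3 groups did not overlap. IER3, an early response gene that modulates cell survival, rose by 1.66 in siRNA A and 1.0 in siRNA B (limma, adjusted p = 9.38e-05 and 0.00424), from 293 ± 22.2 to 979 ± 410 and 587 ± 25.3 TMM-scaled CPM (SD, n = 3 each). As in 9 of the 10 genes, siRNA A replicate 2 was the highest siRNA A library for both, at 2.502 times the mean of the other 2 for NUAK2 and 1.93 times for IER3. The partners of IER3 on the other strand, IER3-AS1 and HCG20, overlap it.

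The same list held genes that moved the other way. TNFAIP8, a regulator of cell death, fell by 0.66 in siRNA A (limma, adjusted p = 0.00105), to 4.09 ± 0.278 from 7.03 ± 0.624 TMM-scaled CPM (SD, n = 3 each). LIF, a cytokine of the interleukin-6 family, fell by 0.60 in siRNA B (limma, adjusted p = 0.00355). CXCL16, a membrane-bound chemokine, rose by 0.79 in siRNA A (limma, adjusted p = 8.99e-04) and fell by 0.49 in siRNA B (limma, adjusted p = 0.0211). It stood at 39.5, 43.6 and 40.1 TMM-scaled CPM in control, at 66.7, 90.5 and 60.4 in siRNA A and at 26.7, 33.0 and 27.2 in siRNA B, 3 groups without overlap. In siRNA B its call did not survive leaving out control replicate 2 (−0.47, limma, adjusted p = 0.0669), siRNA B replicate 1 (−0.45, limma, adjusted p = 0.0739) or siRNA B replicate 3 (−0.45, limma, adjusted p = 0.0619). CXCL16 overlaps MED11 and ZMYND15.

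**Figure D4:**
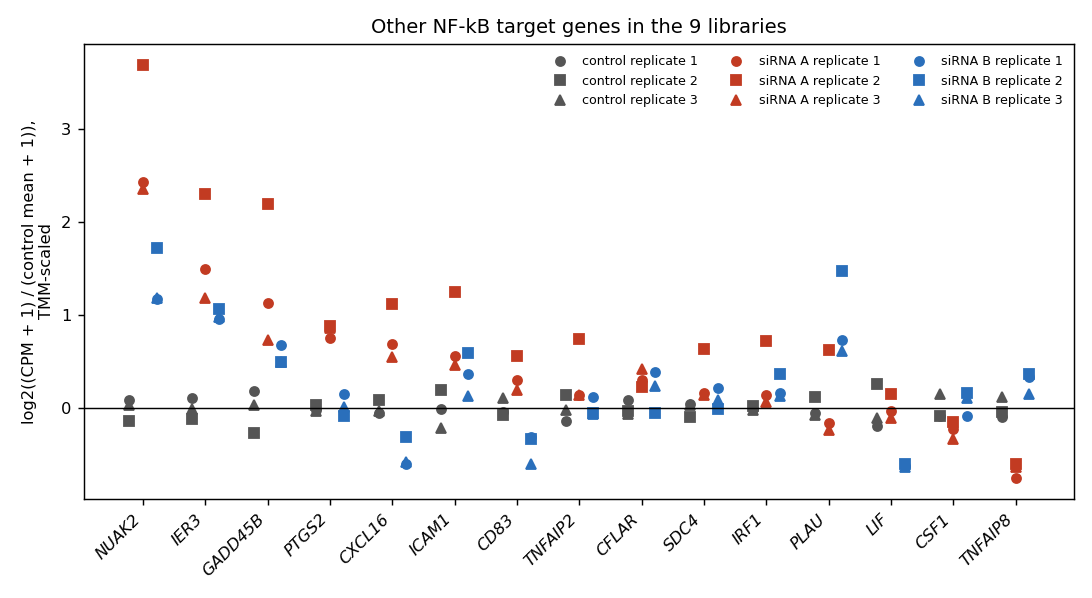
The plot gives, for the 15 other NF-kB target genes that were tested, the log2 ratio of TMM-scaled CPM + 1 in each library to the control mean + 1, with colours for the groups and symbols for the replicates. NUAK2 and IER3 lie above 0 in all 6 siRNA libraries, and CXCL16 lies above 0 in siRNA A and below it in siRNA B.

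The CXCL8 promoter is known to need partners of NF-kB, the AP-1 and C/EBP factors. All 8 tested genes of that list rose in siRNA B and 6 rose in siRNA A, where 15.6% and 23.9% of all tested genes rose. The median differences were 0.94 and 1.19. With library totals alone 6 rose in siRNA B and 5 in siRNA A. None fell in limma, edgeR or DESeq2, nor in limma at an unadjusted p under 0.05. ATF3, a stress-induced factor, rose by 2.53 in siRNA A (limma, adjusted p = 4.42e-05) and 1.34 in siRNA B (limma, adjusted p = 0.00456). JUNB, an AP-1 subunit, rose by 1.71 and 0.92 (limma, adjusted p = 1.42e-04 and 0.0110), and FOSL2, another, by 1.28 in siRNA B (limma, adjusted p = 0.00223). In siRNA A FOSL2 differed by 0.51 (limma, adjusted p = 0.104), and with replicate number as a block it passed the test (limma, adjusted p = 0.00802). The replicate pattern in siRNA A was like that of CXCL8 for ATF3 and JUNB, with replicate 2 at 2.17 and 2.05 times the mean of the other 2 libraries. On the other strand ATF3 overlaps RN7SL512P, JUNB overlaps HOOK2 and FOSL2 overlaps FOSL2-AS1. The CXCL8 window of 300 bases held 1 AP-1 match (TGACTCA or its other-strand form), as did 4.95% of all windows.

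Among regulators that act on AU-rich mRNAs, 6 of 9 rose and 1 fell in siRNA A (3 and 2 with library totals alone), and 2 rose and 1 fell in siRNA B (1 and 2), with medians of 0.57 and 0.10. Of all tested genes 23.9% rose and 27.6% fell in siRNA A, and 15.6% rose and 18.3% fell in siRNA B. Nothing is read from the siRNA B counts. ZC3H12A, an RNase that degrades inflammatory mRNAs, rose by 1.0 in siRNA A (limma, adjusted p = 4.16e-04), and KHSRP, a decay-promoting binding protein, by 0.91 (limma, adjusted p = 1.81e-05). ZFP36, which encodes tristetraprolin, rose by 0.90 in siRNA A (limma, adjusted p = 2.19e-04) and by 1.26 in siRNA B (limma, adjusted p = 5.12e-05). TIAL1 rose by 0.48 in siRNA B (limma, adjusted p = 0.00327) and was called higher in siRNA A too. TIA1 fell by 0.49 in siRNA A (limma, adjusted p = 0.00567) and ZFP36L1 fell by 0.67 in siRNA B (limma, adjusted p = 0.0387). The ZFP36L1 call was lost when control 2, control 3, siRNA B 1 or siRNA B 3 was left out (limma, adjusted p from 0.0913 to 0.132), and that of TIAL1 with library totals alone (limma, adjusted p = 0.0677). The siRNA A call of TIAL1 was lost with library totals alone too (limma, adjusted p = 0.117).

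The list of remaining subunits and IkB proteins held RELA, REL and 5 IkB genes. Of these 7, 3 rose and 1 fell in siRNA A (0 and 2 with library totals alone), and 0 rose and 1 fell in siRNA B under both scalings. The shares over all tested genes were 23.9% higher and 27.6% lower in siRNA A, and 15.6% and 18.3% in siRNA B. Nothing is read from counts among 7 genes. At an unadjusted p under 0.05 1 rose in siRNA B, and 0 rose there in edgeR or DESeq2. The medians were 0.30 in siRNA A and 0.08 in siRNA B. REL, which encodes the c-Rel subunit, rose by 0.68 in siRNA A (limma, adjusted p = 0.0344) and NFKBIE, an inhibitor gene, by 0.56 (limma, adjusted p = 0.00518). BCL3, an atypical IkB protein that acts with p50 and p52 in the nucleus, fell by 0.40 in siRNA A (limma, adjusted p = 0.0179) and by 0.89 in siRNA B (limma, adjusted p = 3.23e-04). The siRNA A call of REL was lost without control replicate 2 or 3 or siRNA A replicate 2 or 3 (limma, adjusted p from 0.0659 to 0.148) and that of BCL3 without control replicate 1 or siRNA A replicate 3 (limma, adjusted p = 0.0655 and 0.0570). NFKBIE and REL lost their siRNA A calls with library totals alone (limma, adjusted p = 0.222 and 0.196).

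Of 9 tested genes of the IKK complex and its kinases, 2 rose and 4 fell in siRNA A (0 and 4 with library totals alone), and 3 rose and 1 fell in siRNA B (2 and 4), with medians of 0.09 and 0.01. Among all tested genes 23.9% rose and 27.6% fell in siRNA A, and 15.6% rose and 18.3% fell in siRNA B. The share of the list that rose in siRNA A was thus near the background. TAB1, an activator of the kinase TAK1, stood at 19.2, 22.1 and 22.5 TMM-scaled CPM in control, at 6.01, 5.29 and 5.41 in siRNA A and at 11.99, 8.84 and 13.1 in siRNA B. It fell by 1.76 in siRNA A (limma, adjusted p = 5.64e-06) and by 0.87 in siRNA B (limma, adjusted p = 8.94e-04), with no overlap between any of the groups. MAP3K14, which encodes NIK, the kinase of the alternative pathway, stood at 24.0 to 27.7 in control, 26.1 to 28.8 in siRNA A and 63.8 to 71.5 in siRNA B. It rose by 1.32 in siRNA B (limma, adjusted p = 5.73e-06) and differed by 0.09 in siRNA A (limma, adjusted p = 0.503), and it overlaps MAP3K14-AS1. TAB2 rose by 0.38 and 0.66 (limma, adjusted p = 0.0366 and 0.00329). Its siRNA A difference was 0.01 with library totals alone (limma, adjusted p = 0.95). TBK1 rose by 0.31 in siRNA A (limma, adjusted p = 0.0370), a direction that turned with library totals alone (−0.06). In siRNA B TBK1 rose by 0.47 (limma, adjusted p = 0.00722), a call lost with library totals alone (limma, adjusted p = 0.125). TAB3 fell by 0.70 in siRNA A (limma, adjusted p = 0.00430). The siRNA A calls of TAB2 and TBK1 were each lost when 1 of several libraries was left out: control 1, 2 or 3, siRNA A 2 or 3 or siRNA B 1 for TAB2 (limma, adjusted p from 0.0508 to 0.143), and control 1 or 2, siRNA A 1 or 3 or siRNA B 1 for TBK1 (limma, adjusted p from 0.0537 to 0.139).

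**Figure D5:**
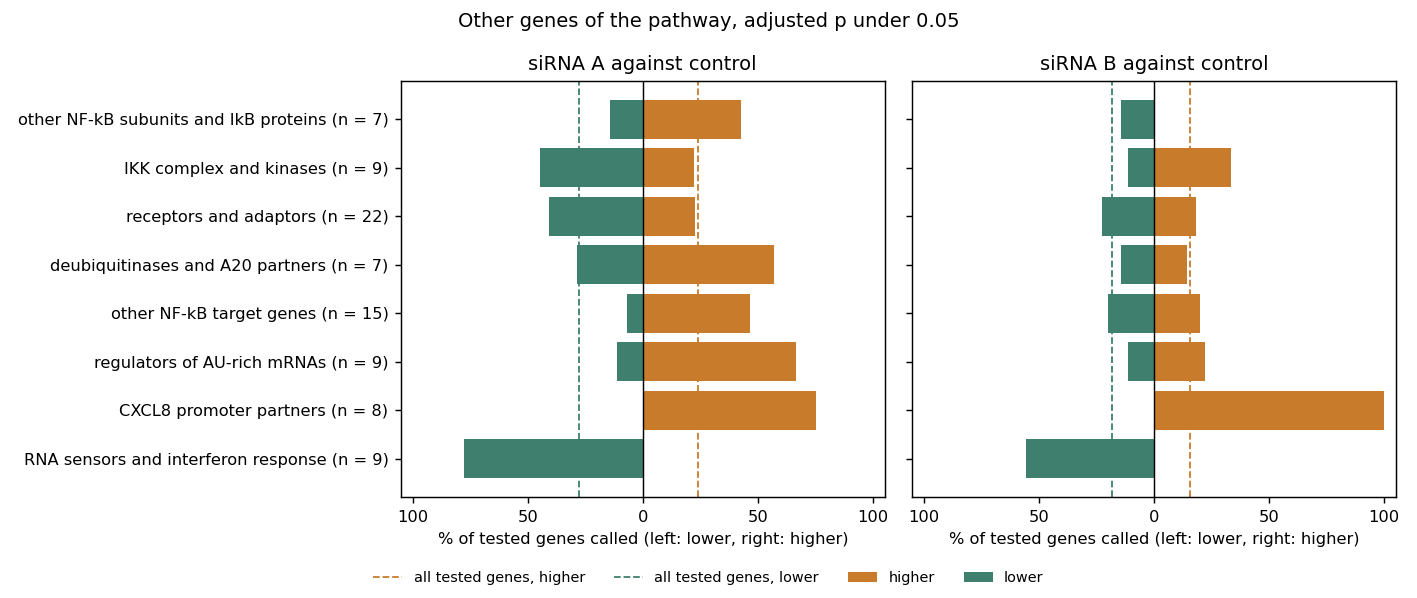
Bars give the percentage of tested genes of each list that were called higher (right) or lower (left) at an adjusted p under 0.05 in the libraries labelled siRNA A and siRNA B against control, and dashed lines give the same percentage over all tested genes. The list of CXCL8 promoter partners reaches 75.0% higher in siRNA A and 100% in siRNA B, and the list of RNA sensors and interferon response genes has no higher gene in either.

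Receptors and adaptors upstream of the pathway were mixed. Of 22 tested, 5 rose and 9 fell in siRNA A (3 and 12 with library totals alone), and 4 rose and 5 fell in siRNA B (3 and 9), with medians of −0.19 and −0.09. The shares that rose in siRNA A and that rose or fell in siRNA B were near those over all tested genes (23.9% in siRNA A, 15.6% and 18.3% in siRNA B). TLR3, which reached 1 CPM in the 3 control libraries and 1 other, passed the filter only through control, and without it 8 fell in siRNA A and 4 in siRNA B. IL1RAP, a subunit of the interleukin-1 receptor, rose by 1.04 in siRNA A and 0.63 in siRNA B (limma, adjusted p = 4.57e-04 and 0.015). TNFRSF10B, a death receptor, rose by 0.80 and 0.70 (limma, adjusted p = 3.08e-05 and 1.54e-04). TNFRSF1A, the main receptor for tumour necrosis factor, rose by 0.41 in siRNA A and 0.64 in siRNA B (limma, adjusted p = 0.0169 and 0.00262). Its siRNA A call was lost with library totals alone (limma, adjusted p = 0.74). IRAK1, a kinase below the interleukin-1 receptor, fell by 0.72 in siRNA A and 1.48 in siRNA B (limma, adjusted p = 0.00234 and 4.87e-05). TLR3, a sensor of double-stranded RNA, fell by 0.92 and 0.75 in a fit with no filter (limma, adjusted p = 0.00123 and 0.00693). CD40 fell by 0.88 in siRNA A and 0.57 in siRNA B (limma, adjusted p = 7.31e-04 and 0.0158). The siRNA B calls of IL1RAP and CD40 were lost without control replicate 2 (limma, adjusted p = 0.0784 and 0.0583). TNFRSF10B overlaps RHOBTB2 on the other strand.

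A20 works with partner proteins and beside other enzymes that remove ubiquitin. Of 7 tested, 4 rose and 2 fell in siRNA A (3 and 3 with library totals alone), and 1 rose and 1 fell in siRNA B (0 and 2), with medians of 0.63 and 0.17. The background over all tested genes was 23.9% higher and 27.6% lower in siRNA A, and 15.6% and 18.3% in siRNA B. The share that fell in siRNA A and both shares in siRNA B were near it. RNF11 and TAX1BP1, both subunits of the A20 complex, rose by 1.21 and 1.18 in siRNA A (limma, adjusted p = 4.96e-05 and 0.00255), and both overlap other genes. TNIP2, which binds A20, fell by 1.18 in siRNA A (limma, adjusted p = 1.28e-04). OTULIN, which removes linear ubiquitin chains, fell by 0.54 and 0.39 (limma, adjusted p = 0.00156 and 0.0172). CYLD, a deubiquitinase, rose by 0.63 in siRNA A and 0.39 in siRNA B (limma, adjusted p = 8.9e-04 and 0.0217). Both CYLD calls were lost with library totals alone (limma, adjusted p = 0.0546 and 0.218). The siRNA B calls of OTULIN (limma, adjusted p from 0.0539 to 0.0657 when control 2, control 3, siRNA B 1 or siRNA B 3 was left out) and CYLD (0.0538 to 0.0958 when control 1, control 2, siRNA B 1 or siRNA B 2 was left out) did not hold in each subset.

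Transfected RNA can be sensed as foreign, so RNA sensors and interferon response genes were listed too. The control cells had also received an siRNA at the same dose, so these contrasts cannot tell whether transfected RNA was sensed, which was not tested. None of 9 tested rose with either siRNA, 7 fell in siRNA A and 5 in siRNA B (9 and 6 with library totals alone). None rose in edgeR or DESeq2 either, nor in limma at an unadjusted p under 0.05, and the medians were −0.57 and −0.48. Without TLR3 and IFIT3, which passed the filter only through control, 5 of 7 fell in siRNA A and 3 of 7 in siRNA B, where 27.6% and 18.3% of all tested genes fell. IFIT3, an interferon-induced antiviral gene, stood at 1.40, 1.65 and 1.31 TMM-scaled CPM in control and at 0.302 to 0.745 in the 6 siRNA libraries. In a fit with no filter it fell by 0.86 in siRNA A and 0.72 in siRNA B (limma, adjusted p = 1.91e-04 and 0.00101). IFIT3 overlaps LIPA on the other strand and IFIT6P on its own. In siRNA B the sensor genes IFIH1 and DDX58 (RIGI) fell by 0.93 and 0.82 (limma, adjusted p = 0.00120 and 0.00128). Of 4 listed receptors and binding proteins for the chemokines, SDC1 alone had a row: this cell surface proteoglycan, which carries chemokines, fell by 1.09 in siRNA A (limma, adjusted p = 2.06e-05).

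The genes whose pattern over the 9 libraries was most like that of CXCL8 were sought among 9069 genes with a mean of at least 10 CPM, by Pearson r of log2(TMM-scaled CPM + 1), as a description over 9 libraries that share 3 groups. DUSP5, a phosphatase gene of the ERK pathway, came first (r = 0.996) and stood at 183, 133 and 159 TMM-scaled CPM in control, at 393, 549 and 368 in siRNA A and at 224, 208 and 208 in siRNA B. It had the same order of libraries as CXCL8 at both ends, with siRNA A replicate 2 the highest and control replicate 2 the lowest. MPZL3, YRDC, PDGFB and PTRH2 followed with r from 0.985 to 0.988. For NFKBIA the 4 most alike were EMC7 (r = 0.988), RPL27A, ZNF394 and HADHB (r from 0.978 to 0.981). None of these 9 genes is on a list used above.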

How the data were processed

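RNA of HCT116 cells had been purified with oligo-dT and sequenced on an Illumina HiSeq instrument. The authors deposited 1 table of CPM values (counts of reads per gene over the library total, brought to 1 common total), with 15354 rows and 9 columns. TopHat2, HTSeq and the GRCh37 build are named in the submitters' processing notes, while the annotation and the use of strand are not given in the sources used here. All values were whole multiples of 1 read within a tolerance of 0.05, so reads were recovered and used for added count tests. Rows were matched by identifier to the GENCODE annotation on GRCh37 (14871 of 15354).

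Groups came from the sample titles. Libraries were scaled by TMM factors (edgeR 4.0.16), the 13893 genes that reached 1 CPM in 3 or more libraries were kept, and log2(CPM + 1) was fitted with limma 3.58.1 (R 4.3.3) as 1 model with a mean per group over all 9 libraries, variances moderated with a trend, Benjamini-Hochberg adjustment over all tested genes and a threshold of 0.05. Tests had been planned for this unit, and the script was checked on data with known changes. The floor of 3 reads was 0.129 to 0.193 CPM. Within groups libraries correlated with r from 0.983 to 0.994, and no pair agreed within sampling noise. Deviations of same-numbered control and siRNA A libraries from their group means correlated with r = 0.646, 0.411 and 0.13 across genes. Between siRNA A and siRNA B r was 0.204, 0.442 and 0.019. Libraries of different numbers were not compared, so whether the numbers pair is not settled, and the main fit is unpaired. The labels do not state what a number shares.

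The members and the gene lists were chosen with earlier results of these data known. Named genes were the 10 members, of each list the 2 called genes with the largest changes up and down per comparison, defining markers, the 5 genes most like CXCL8 and the 5 most like NFKBIA, and SNHG5. 1 gene that this rule names is not reported here. DESeq2 1.42.0 and the edgeR quasi-likelihood test were run as alternatives, beside other scalings, pseudocounts, filters, a replicate block and leaving out each library. Sequence searches used Python 3.11.15. Counts without the genes that passed the filter only with the group in which they were highest were added after the data had been seen.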

Additional observations from a re-analysis of the deposited data

Results flagged for a closer look

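Both results below were singled out because the siRNAs differed from control in opposite directions. CXCL16, the membrane-bound chemokine, rose by 0.79 in the libraries labelled siRNA A and fell by 0.49 in those labelled siRNA B. The difference between siRNA A and siRNA B was 1.28 (limma, adjusted p = 8.49e-05), with all 3 siRNA A libraries above and all 3 siRNA B libraries below the 3 control libraries.

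RELB had all 3 siRNA A libraries above the control mean and all 3 siRNA B libraries below it, with log2 differences from control of 0.92 and −0.24. The difference between them was 1.17 and was not tested, since the siRNA A libraries were used in the selection, and siRNA B itself did not pass the test against control.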

How the results depend on the processing

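The number of the 10 genes called higher in siRNA B was 2. It was 0 with library totals alone, 1 without the genes that passed the filter only with their highest group (CXCL2 and CXCL3, an alternative chosen after the data had been seen) and 1 with median-of-ratios size factors, with no filter on low values, with only the 2 groups compared and with the edgeR test on recovered reads. Leaving out 1 library gave 0 to 4: 0 without control replicate 2 or 3 or any siRNA B library, 1 without siRNA A replicate 1 or 3, and 4 without siRNA A replicate 2. With library totals alone the other pathway genes called higher in siRNA A went from 33 to 19 and those called lower in siRNA B from 16 to 27, the latter with a range of 9 to 18 when 1 library was left out (9 without control replicate 2, and 10 without control replicate 3 or siRNA B replicate 3). Over all tested genes library totals alone changed the higher and lower calls from 3314 and 3831 to 1257 and 6532 in siRNA A and from 2172 and 2547 to 958 and 4127 in siRNA B, where leaving out 1 library gave 1395 (control replicate 2) to 2293 higher. The median log2 difference of the 10 genes in siRNA A went from 1.41 to 2.09 in edgeR and 2.13 in DESeq2, which add no pseudocount of 1 CPM, and to 1.11 to 1.63 with 1 library left out. Against siRNA B it went from 1.02 to 1.55 in DESeq2 and to 0.72 to 1.3 with 1 library left out. TBK1 in siRNA A turned from 0.31 to −0.055 with library totals alone (limma, adjusted p = 0.730).

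Replicate numbers were used as a replicate block as well. The number of other pathway genes called higher in siRNA A was 37 with the block against 33 without it. Same-numbered control and siRNA B libraries did not deviate together throughout (r = 0.173, 0.445 and −0.386), so those numbers are not taken as pairs either. In that comparison RNF11 (0.37, limma, adjusted p = 0.00761) and TAX1BP1 (0.59, limma, adjusted p = 0.0311) passed with the block. With the block the number of the 10 genes called higher in siRNA B was again 2, and FOSL2 was the 1 named gene whose siRNA A call changed. Depth limits CXCL1, CXCL2 and CXCL3, which had 4 to 25 reads in each control library. The causes of the other changes were not tested.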
